A study of Schmidtea mediterranea with 6 samples.

Results

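The subject here is a class of 92 mapped poly(A) sites, of 5054 on a custom array, whose transcripts gave signal in differentiated planarian cells and none well above background in stem cells. The sites were chosen by measured values. A site entered when its brightest probe was marked well above background on both Xins arrays and on neither X1 array. Such a site is called detected on an array that carries the mark, which the scanner software sets per spot. Since the Xins and X1 arrays chose the sites, their difference between these gates is a description and is not tested as a finding.

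The material was mRNA of Schmidtea mediterranea, the freshwater planarian, sexual strain, sorted by flow cytometry with no treatment. By its label the Xins gate is one of differentiated cells, X2 one of progenitors and X1 one of stem cells, with 2 arrays for each. All 6 arrays lay on 1 slide and were labelled with Cy3. Whether the arrays of a gate stand for separate sorts, separate animals or repeats of 1 RNA is not stated in the labels, nor is the number of animals, so the p-values measure the spread between these arrays, which may be technical. Marker genes of the gates were not analysed here, because each transcript model is named by a code with no gene name, so gate purity was not checked.

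Planarian stem cells, the neoblasts, are the only dividing somatic cells of the adult worm and replace every tissue during turnover and regeneration. The gates are set by DNA content and cell size: X1 holds cells in S, G2 or M phase, X2 holds a mixture of stem cells and their early post-mitotic progeny, and Xins, insensitive to irradiation, holds differentiated cells. A poly(A) site is the place where a pre-mRNA is cut and given its tail, usually a short way downstream of the signal hexamer AATAAA or of its common variant ATTAAA. In these bulk samples, fewer cells of a type and less RNA per cell cannot be told apart. A probe reads transcripts that hold its own stretch, and other ends of the same gene were not analysed here.

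Shown here are the probe ends at 13 sites on which the results turn, as 30 bases written 5′ to 3′ on the transcript strand. Capitals mark AATAAA or ATTAAA where it starts 10 to 35 nt before the 3′ end of the probe. The stretch ends at that 3′ end, except that it stops 2 bases short for Contig2, 4 for Contig2930 and 3 for Contig325 so as to hold the hexamer. Contig names, strands and positions are those of the deposited tables, and the genome build behind them was not stated there. The opening set of 3 had large bounds of Xins over X1:
Contig2, plus strand, 461489 to 461505: AATAAAtataattatttatttattttctca
Contig245, plus strand, 71783 to 71834: gttaattttattatcatgaggcattattat
Contig3538, minus strand, 1305 to 1354: taagaacttccaaaggtcttcttccttcat
The next 4 were detected on both X2 arrays and had the largest bounds of X2 over X1 there:
Contig2930, minus strand, 21532 to 21597: AATAAAgcatccgtgtttgatttgcctctc
Contig4587, plus strand, 68891 to 68898: ttaaatataacgattcttgatcttgattaa
Contig4731, plus strand, 18491 to 18506: gataaattggcttgattttgcgttttgctt
Contig223, minus strand, 149015 to 149019: tgcaaaaatattattcgtccgagttgttat
These 4 were detected on no X2 array and had the largest bounds of Xins over X2 among such sites:
Contig4622, plus strand, 30302 to 30346: gtttattgttctatttaatATTAAAatctg
Contig873, minus strand, 57718: tccatttgtggattgacttgtaattttgaa
Contig9564, minus strand, 9815 to 9825: ataatataattataatgcaagttttgtttt
Contig19555, minus strand, 2044 to 2063: tgatctaatatatcttttgaaatgatttat
The last pair, together with Contig245, had the largest bounds of Xins over X1 among sites detected on exactly 1 X2 array:
Contig18792, plus strand, 3612 to 3672: aatagcattttataattgattttgttattg
Contig325, plus strand, 36638 to 36673: AATAAAagacaacttgagtttgtttattta

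Over the whole array, 24.1% to 28.8% of sites were detected on an array, namely 1418 and 1216 sites on Xins arrays 1 and 2, 1453 and 1276 on X2 arrays 1 and 2, and 1392 and 1224 on X1 arrays 1 and 2. Signals are given as log2 processed signal relative to the 75th percentile of the array. On that scale the lowest signal that carried the mark was -6.22 and -5.27 on the Xins arrays, -6.29 and -5.57 on the X2 arrays and -6.44 and -5.30 on the X1 arrays, so array 2 of each gate saw less far down than array 1. Of the 92 sites, 65 had their brightest probe on 1 spot and 27 on 2 spots, and both spots had to carry the mark. No site was saturated on any array.

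Many of these transcripts were not detected in the progenitor gate either. Of the 92 sites, 48 (52.2%) were detected on no X2 array, 19 (20.7%) on 1 and 25 (27.2%) on both. Among all 1100 sites detected on both Xins arrays, 62 (5.64%) were detected on no X2 array and 979 (89%) on both. Among all 3540 sites detected on neither X1 array, 41 (1.16%) were detected on both X2 arrays. Both sets include the 92 sites, which make up 48 of the 62 and 25 of the 41. The median Xins signal was -4.35, -3.56 and -3.31 for the sites on no, 1 and both X2 arrays. The part of nearness to the limit in these shares was not tested. The X2 marks took no part in the choice of the sites, except that the brightest probe of a site was found over all 6 arrays.

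The opposite class, 74 sites detected on both X1 arrays and on neither Xins array, was detected more often in X2, with 20 sites (27%) on no X2 array, 17 (23%) on 1 and 37 (50%) on both. The difference between the classes was not tested, since sites are not replicates. The 909 sites detected on both Xins arrays and both X1 arrays were nearly all in X2 too, with 888 on both X2 arrays and 5 on none. The 99 sites detected on both Xins arrays and only 1 X1 array lay between, with 66 on both X2 arrays, 24 on 1 and 9 on none.

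**Figure D1:**
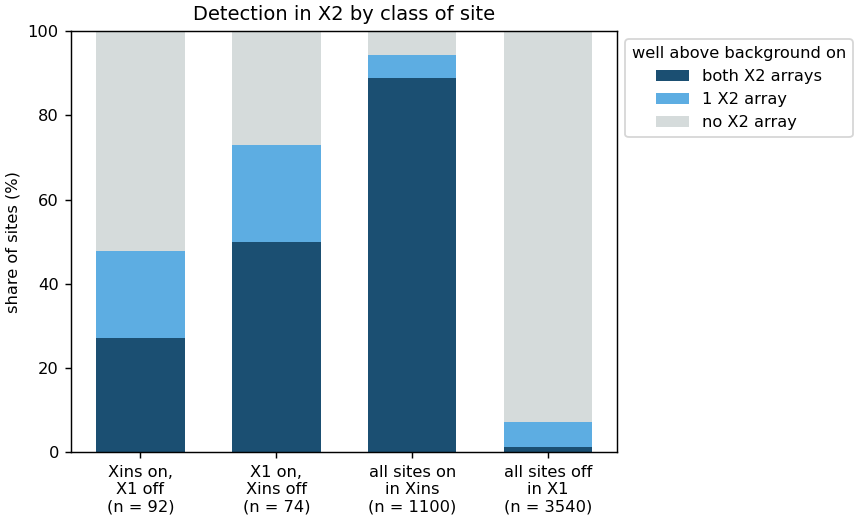
Share of sites, in percent, detected on both X2 arrays, on 1 or on none, for 4 classes of site with the number of sites under each bar; "on" and "off" stand for detected on both arrays and on neither array of a gate. Of the 92 sites on in Xins and off in X1, 52.2% were on no X2 array, against 27% of the 74 sites of the opposite class. The share was 5.64% of all 1100 sites on in Xins, which include the 92.

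Of the 19 sites detected on 1 X2 array, 16 were on array 1 and 3 on array 2. Array 1 is also the X2 array with more detected sites over the whole design and the lower limit, and the part of this in the split was not tested. The size of the class moved with single arrays. It was 182 without Xins array 1, 222 without Xins array 2, 175 without X1 array 1 and 108 without X1 array 2, where the rule then asked only for the array left.

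Off in X1 meant dim rather than blank for most sites. With the software's weaker mark, set where a spot is positive and significant against background, 39 sites passed on both X1 arrays, 33 on 1 and 20 on none, and in X2 the same mark was set on both arrays for 68, on 1 for 16 and on none for 8. At 12 of the 27 sites with 2 spots, 1 of the spots was marked well above background on an X1 array. Only 12 sites had no spot with even the weaker mark in X1. Of these 12, 7 were detected on no X2 array, 3 on 1 and 2 on both.

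Contig26257 (minus strand, 7046), chosen here after its values were seen, was the only site with no spot weakly marked in X1 or in X2. It had -4.54 and -2.15 on the Xins arrays, -8.57 and -7.87 on the X2 arrays and -8.74 and -7.60 on the X1 arrays. The Xins arrays were above the other 4 but lay far apart from each other. Xins was at least 5.78-fold higher than X1 and at least 6.02-fold higher than X2.

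Because X1 gives only a limit at these sites, sizes are given as lower bounds. The Xins mean was set against an X1 mean. On each X1 array that mean took the higher of the lowest well-marked signal and the probe's own signal. Bounds of X2 over X1, at sites on both X2 arrays, and of Xins over X2 were formed in the same way. No bound allows for the spread between the arrays of a gate. The bounds of Xins over X1 ran from 1.17-fold to 82.8-fold with a median of 3.89-fold, and 45 of the 92 sites had a bound of 4-fold or more. By detection on no, 1 or both X2 arrays, the median bound was 2.87-fold, 4.97-fold and 5.92-fold, and 15, 13 and 17 sites reached 4-fold. In limma, over all 1349 sites tested, 24.6% were higher in Xins than in X1, and 79 of the 92 sites were. That count rests on the arrays that chose the sites and nothing is read from it. Both Xins arrays were above both X1 arrays at 86 of the 92 sites.

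**Figure D2:**
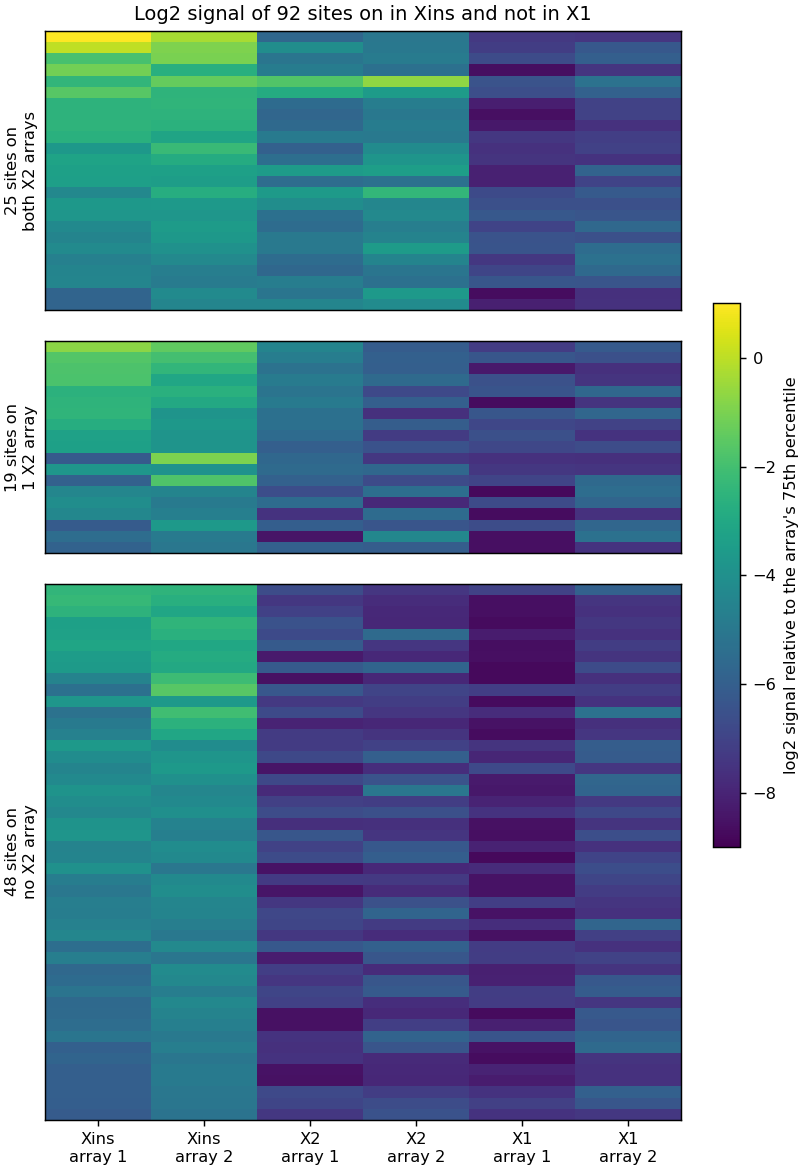
Log2 signal relative to the array's 75th percentile (colour) of the 92 sites (rows) on each of the 6 arrays (columns), split by detection on both X2 arrays, 1 or none and ordered by the bound of Xins over X1. The 25 sites on both X2 arrays keep X2 colours between those of Xins and X1 or close to Xins, while the 48 sites on no X2 array have X2 colours near those of X1.

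At Contig2 (model mk4.000002.18.01), with the largest bound of the class, the signal was 1.32 and -0.32 on the Xins arrays, -5.67 and -5.03 on the X2 arrays and -7.33 and -7.43 on the X1 arrays. The 3 gates did not overlap, and X2 lay close to its detection limit. Xins was at least 82.8-fold higher than X1. Against X2, where the site was detected on both arrays, Xins was higher by 5.85 ± 0.59 (log2, SE). For X2 over X1 the bound was 1.43-fold, and that difference did not pass the limma test (adjusted p = 0.102). The sites named here were picked for the size of these differences, on arrays that also chose the class, so no p is given for a difference that passed.

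Contig3538 showed the same order, with -1.92 and -1.005 on the Xins arrays, -5.11 and -4.84 on the X2 arrays and -6.72 and -5.96 on the X1 arrays. No gate overlapped another. The bound of Xins over X1 was 21.3-fold, and Xins exceeded X2 by 3.51 ± 0.48 (log2, SE). For X2 over X1 the bound was 1.86-fold (adjusted p = 0.149).

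Contig245 reached the threshold on X2 array 1 alone. It had -0.73 and -1.45 on the Xins arrays, -4.49 and -6.09 on the X2 arrays and -7.23 and -6.16 on the X1 arrays. Both X2 values were above the X1 values, by little on array 2, and far under the Xins values. The bound of Xins over X1 was 27.5-fold, and that of Xins over X2 was 15.3-fold.

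**Figure D3:**
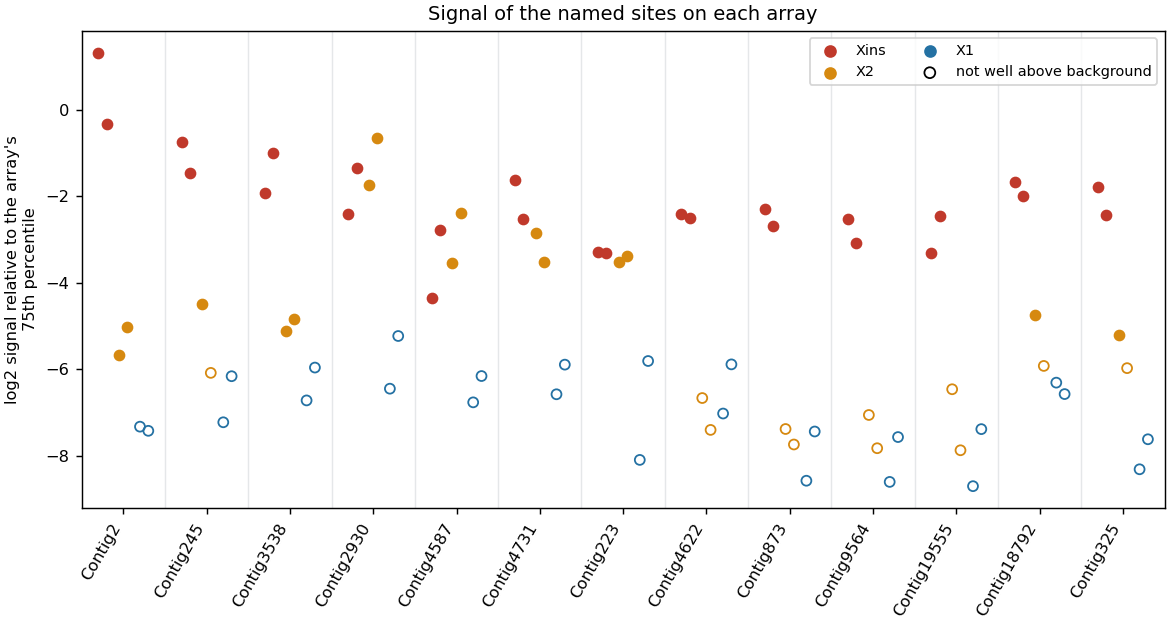
Log2 signal relative to the array's 75th percentile of the 13 sites whose probe ends are printed, 1 point per array, by gate from left to right Xins, X2 and X1; open circles were not well above background. All X1 points are open, and X2 points lie near Xins height for Contig2930, Contig4587, Contig4731 and Contig223 and at X1 height for Contig4622, Contig873, Contig9564 and Contig19555.

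Over the 92 sites the median fitted log2 fold change of X2 over X1 was 0.69, beside -0.02 over all 1349 sites tested, and that of Xins over X2 was 2.50, beside -0.27. Over the 25 sites detected on both X2 arrays, these medians were 2.30 and 1.12, over the 19 on 1 array 1.08 and 2.68, and over the 48 on none 0.35 and 2.75. The fits use signals not well above background in X1 at every site and in X2 at 48 sites, so they are not measured sizes. Higher in X2 than in X1 were 16 of the 92 sites, where 4.67% of all tested sites were called in that direction. By detection on both X2 arrays, 1 or none, the calls were 13 of 25, 3 of 19 and 0 of 48 in limma, and 22, 6 and 6 sites had an unadjusted p under 0.05. The X1 arrays were chosen to be low at these sites, so the count is a description. It moved widely with the setting: it was 2 without X2 array 1, 0 without X2 array 2, 1 without X1 array 1, 3 without X1 array 2 and 0 under another background correction (normexp). It was 30 when array number entered the fit as a block, 18 with the slide row as the block, 18 when all probes set the percentile and 10 in the authors' table. Both X2 arrays were above both X1 arrays at 45 sites, namely 23, 11 and 11 in the same order.

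Higher in Xins than in X2 were 54 of the 92 sites, where 14.2% of all tested sites were called in that direction. These were 9 of the 25 sites on both X2 arrays, 11 of the 19 on 1 and 34 of the 48 on none. Lower in Xins than in X2 were 0 of the 92 sites in limma, none also at an unadjusted p under 0.05, beside 11.5% of all tested sites. The Xins arrays were chosen to be high here, so these counts too are a description. Both Xins arrays were above both X2 arrays at 82 sites.

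The 25 sites detected on both X2 arrays were not alike. At 8 of them X2 was called higher than X1 and not lower than Xins, at 5 it was called higher than X1 and lower than Xins, at 4 only lower than Xins, and 8 passed neither test. At 11 of the 25 the X2 and Xins means were within 2-fold of each other, and at 9 Xins was more than 4-fold higher. The bounds of X2 over X1 ran from 1.39-fold to 25.01-fold with a median of 1.93-fold.

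Contig2930 (model mk4.002930.10.01) had the largest bound of X2 over X1 in the class. It had -2.42 and -1.35 on the Xins arrays, -1.73 and -0.66 on the X2 arrays and -6.45 and -5.23 on the X1 arrays. X2 and Xins overlapped, and X1 lay far below both. X2 was at least 25.01-fold higher than X1. The X2 mean of -1.19 ± 0.76 was above the Xins mean of -1.88 ± 0.76 (SD, n = 2 each), a difference that did not pass the limma test (adjusted p = 0.44). Its X1 values sat at the limit, with -0.01 and 0.07 relative to the lowest marked signal of their arrays.

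Contig4587 (model mk4.004587.02.01) had -4.34 and -2.79 on the Xins arrays, -3.54 and -2.38 on the X2 arrays and -6.77 and -6.16 on the X1 arrays. X2 again overlapped Xins and cleared X1, by at least 7.52-fold. Of the 2 spots of the Contig4587 probe, 1 was marked on X1 array 1. The site therefore leaves the class if any marked spot counts. Contig4731 had -1.61 and -2.52 on the Xins arrays, -2.84 and -3.53 on the X2 arrays and -6.58 and -5.89 on the X1 arrays. Here X2 was below both Xins arrays yet still at least 6.45-fold higher than X1, and its gap to Xins of 1.12 (log2) did not pass the test (adjusted p = 0.134).

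Contig223 had -3.30 and -3.32 on the Xins arrays, -3.52 and -3.38 on the X2 arrays and -8.10 and -5.81 on the X1 arrays. Xins and X2 nearly coincided, and the X1 arrays were far apart. X2 was at least 5.36-fold higher than X1. The difference of Xins minus X2 was 0.14 on the log2 scale, with a 95% interval of -1.56 to 1.85. Of the 2 spots of this probe, 1 was marked on X1 array 2, so the site leaves the class if any marked spot counts. These 4 sites are among the 16 called higher in X2 than in X1; all 4 calls were lost under normexp, where the fitted log2 fold changes were 1.32, 0.55, 0.46 and 0.41, and each was lost without at least 1 of the X2 arrays.

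At 4 sites in all, the X2 mean was above the Xins mean: Contig2930, Contig4587, Contig0 (plus strand, 375437 to 375495) and Contig373 (minus strand, 38313), the last pair chosen here after their values were seen. Contig0 had -5.79 and -4.21 on the Xins arrays, -5.12 and -3.64 on the X2 arrays and -8.65 and -7.59 on the X1 arrays. Contig373 had -5.79 and -4.43 on the Xins arrays, -4.47 and -4.16 on the X2 arrays and -8.12 and -7.59 on the X1 arrays. In both, X1 lay clearly under the other gates. X2 was at least 2.82-fold higher than X1 at Contig0 and at least 2.94-fold higher at Contig373. None of the 4 was called lower in Xins than in X2, and at none were both X2 arrays above both Xins arrays.

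**Figure D4:**
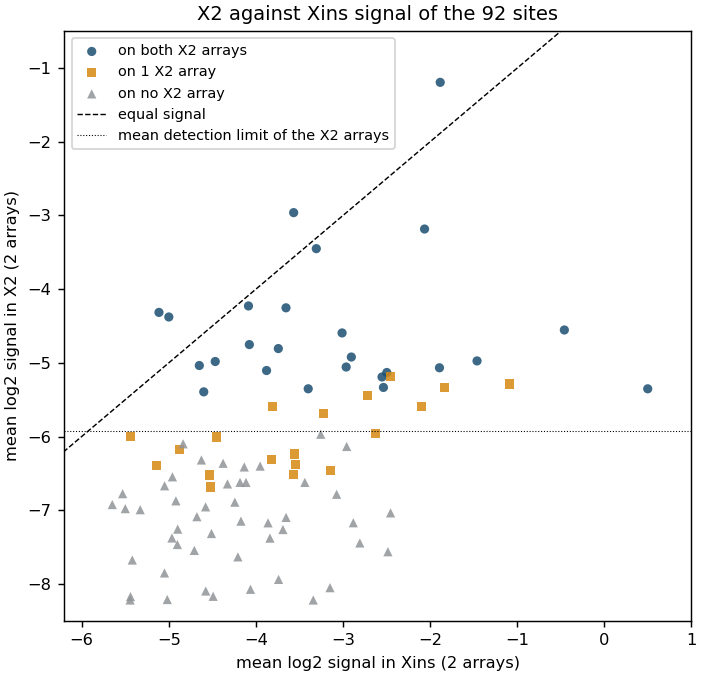
Mean log2 signal of the 2 X2 arrays (vertical axis) against that of the 2 Xins arrays (horizontal axis) for the 92 sites, by detection in X2; the dashed line is equal signal and the dotted line the mean detection limit of the X2 arrays. Points for 4 sites lie above the dashed line, and the 48 sites on no X2 array lie under the dotted line.

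At the other end, 48 sites were detected in Xins and on no X2 or X1 array, and the bounds of Xins over X2 there ran from 1.22-fold to 11.1-fold with a median of 2.91-fold. Contig4622 (model dd_smedV4_85919_0_1) had -2.40 and -2.50 on the Xins arrays, -6.67 and -7.41 on the X2 arrays and -7.03 and -5.89 on the X1 arrays. The X2 and X1 values overlapped, and Xins stood apart from both. Xins was at least 11.1-fold higher than X2 and at least 10.7-fold higher than X1.

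Contig873 (model OX_Smed_1.0.21139) had -2.29 and -2.67 on the Xins arrays, -7.38 and -7.74 on the X2 arrays and -8.58 and -7.44 on the X1 arrays. No spot of this probe carried even the weaker mark in X1. Xins was at least 10.9-fold higher than X2. Contig9564 gave the same picture, with -2.52 and -3.09 on the Xins arrays, -7.06 and -7.83 on the X2 arrays and -8.61 and -7.57 on the X1 arrays. Its bound of Xins over X2 was 8.73-fold.

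Contig19555 had -3.30 and -2.46 on the Xins arrays, -6.46 and -7.88 on the X2 arrays and -8.71 and -7.39 on the X1 arrays. The X2 arrays differed by more than the Xins arrays did, and the gates Xins and X2 did not overlap. The bound of Xins over X2 was 8.28-fold. For X2 over X1 none of these 4 sites passed the test, with adjusted p of 0.529, 0.614, 0.484 and 0.466 in the order given.

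Among sites on exactly 1 X2 array, Contig18792 had -1.67 and -1.99 on the Xins arrays, -4.75 and -5.92 on the X2 arrays and -6.31 and -6.58 on the X1 arrays. The 3 gates did not overlap, and X1 was not detected. Of the 2 spots of this probe, however, 1 was marked on X1 array 1, so Contig18792 leaves the class if any marked spot counts. Xins was at least 15.7-fold higher than X1 and at least 10.04-fold higher than X2. Contig325 had -1.78 and -2.42 on the Xins arrays, -5.21 and -5.98 on the X2 arrays and -8.32 and -7.62 on the X1 arrays. It was 1 of the 3 sites of this group called higher in X2 than in X1. Its X2 mean, with array 2 not marked, was 1.21-fold over the X1 limit, so that ratio is not a lower bound. Xins was at least 13.7-fold higher than X1.

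The other 2 of those calls were Contig9378 (plus strand, 16224 to 16302) and Contig18224 (minus strand, 2291), named after their values were seen. Contig9378 had -2.49 and -2.95 on the Xins arrays, -4.89 and -5.99 on the X2 arrays and -8.66 and -7.49 on the X1 arrays. Contig18224 had -3.73 and -3.89 on the Xins arrays, -5.54 and -5.65 on the X2 arrays and -7.39 and -7.47 on the X1 arrays. At both, the 3 gates did not overlap, and X1 was not detected. The X2 means, each with X2 array 2 not marked, were 1.35-fold and 1.21-fold over the X1 limit, which are not lower bounds. The bounds of Xins over X2 were 5.69-fold and 3.35-fold, in the order given.

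The median SD between the 2 Xins arrays was 0.45 over the 92 sites, beside 0.41 over all tested sites, and these arrays were over 1 apart (log2) at 26 sites. For X2 the median SD was 0.50 beside 0.44, with 28 sites over 1 apart. For X1, not well above background at these sites, it was 0.74 beside 0.37, with 47 sites over 1 apart. The fits against X1 include that wider spread. The widest Xins gaps were at Contig9099, Contig977 and Contig2150, picked for that gap. At Contig9099 (plus strand, 5365 to 5388) the Xins arrays gave -6.16 and -0.98, at Contig977 (plus strand, 29635) -5.88 and -1.76, and at Contig2150 (plus strand, 18683 to 18698) -5.29 and -1.58. In all of them it was array 2 that stood high, so their bounds of 4.93-fold, 4.15-fold and 5.41-fold over X1 rest on 1 array.

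On the Xins side of the rule, Contig9099 was also the site nearest the inner edge, its Xins array 1 signal being 0.06 above the lowest marked signal of that array. Next was Contig538 (minus strand, 120973), at 0.09 above it, with -6.14 and -3.62 on the Xins arrays, -6.01 and -6.35 on the X2 arrays and -6.69 and -5.69 on the X1 arrays. Just outside on the X1 side, Contig1374 (minus strand, 35304 to 35376) was detected on 1 X1 array. It had -2.79 and -1.12 on the Xins arrays, -4.73 and -5.08 on the X2 arrays and -6.37 and -6.30 on the X1 arrays. Contig5797 (minus strand, 10036), likewise detected on 1 X1 array, had -2.43 and -3.83 on the Xins arrays, -5.16 and -6.55 on the X2 arrays and -6.34 and -6.76 on the X1 arrays. On the Xins side, 220 sites were detected on 1 Xins array and no X1 array. The nearest of them were Contig25145 (plus strand, 8506), with -5.19 and -4.69 on the Xins arrays and -8.61 and -7.48 on the X1 arrays, and Contig3352 (plus strand, 8111 to 8122), with -4.52 and -4.97 on the Xins arrays and -8.49 and -6.04 on the X1 arrays. Both were on Xins array 1 only. The Xins means of these 4 outside sites lay within the range of the 92 sites, which ran from -5.65 to 0.50.

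The sites were scattered over 91 contigs, 42 on the plus and 50 on the minus strand. Contig193 alone held 2 of them, both on the minus strand at 148869 and 175465, 26596 nt apart, and both on no X2 array. Their probes had the same sequence, so the 92 sites held 91 distinct sequences and these 2 do not count as separate evidence. On the Xins arrays the probe at 148869 gave -4.70 and -4.45 and the probe at 175465 gave -4.33 and -4.04. Probes of unequal length also shared sequence. Those of Contig10335 (plus strand, 429 to 442) and Contig14349 (plus strand, 17699 to 17713) shared 30 bases from AATAAA on. Both sites were on both X2 arrays. The same held for Contig19801 (plus strand, 15001 to 15003) and Contig29872 (plus strand, 4497), both on 1 X2 array. The sites of such a pair may not be separate evidence either.

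The share with the main poly(A) signal lay between those of all sites and of tested sites. AATAAA, searched on the probe strand only and starting 10 to 35 nt from the 3′ end, was present in 35 of 92 probes (38.0%), and ATTAAA without AATAAA in 11 (12%), which left 46 (50%) with neither. Over all 5054 sites the shares were 42.8%, 8.07% and 49.1%, and over the 1349 tested sites 34.5%, 5.34% and 60.2%. Among the 48 sites on no X2 array 16 had AATAAA and 8 had ATTAAA, against 10 and 1 of the 19 sites on 1 X2 array and 9 and 2 of the 25 on both. The median GC content of the probes was 23.3%, beside 21.6% over all sites and 25.9% over tested sites.

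Within the 92 sites, those of 1 position were a larger share where X2 was not detected. The median span from start to end was 11 nt, beside 3 nt over all sites and 14 nt over tested sites. A span of 1 position was found at 28.3% of the 92 sites, beside 44.2% of all sites and 16% of tested sites. The share was 12.5% of the 1100 sites detected on both Xins arrays. It was 37.5% of the 48 sites on no X2 array, 31.6% of the 19 on 1 and 8% (2 sites) of the 25 on both. The sites on no X2 array were also dimmer in Xins, with a median of -4.35 against -3.31 for those on both. These shares, and the part of brightness in them, were not tested.

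Other probes at the same sites were read as well. The rule kept the brightest probe over all 6 arrays, so these others are dimmer on average by that choice. A mark missing from them in X1 is therefore no check on the rule. The part of dimness in marks missing in Xins was not tested. At 38 sites, 73 more probes carried the same sequence as the brightest one, through other transcript models. Their Xins signal differed from that of the brightest probe by a median of -0.19 (log2). Of these 73 probes, 43 were detected on both Xins arrays, 20 on no Xins array and 6 on an X1 array, and 37 met the rule themselves. At the sites of those 6, another copy of the sequence was thus detected in X1. Where the bound of Xins over X1 was 4-fold or more, 21 of 34 met it and 6 were on an X1 array. Under 4-fold, 16 of 39 met it and 0 were on an X1 array.

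At 16 sites, 21 probes had a different sequence. Of these 10 met the rule, 5 were detected on no Xins array and 0 on any X1 array. The alternative probe at Contig2930 was detected on both X2 and both Xins arrays, with -3.05 and -2.08 on the Xins arrays, -2.38 and -1.43 on the X2 arrays and -6.09 and -4.85 on the X1 arrays. It repeated the overlap of X2 with Xins and the gap to X1. As it was offset by only 5 nt from the brightest probe, it is not an independent check. At Contig18792, the alternative probe, offset by 45 nt from the brightest one, was not detected on any array. At Contig325, whose alternative was offset by 20 nt, it was detected on Xins array 1 only. The results at those sites therefore rest on 1 probe sequence.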

How the data were processed

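RNA from the 3 sorted gates was hybridised to 6 single-colour Agilent arrays. The deposited scanner files give linear intensity, made, per the file headers, with Feature Extraction 11.5.1.1, which subtracted background, detrended each array and wrote a surrogate for low spots (52.6% to 58.7% of spots per array). Its well-above-background mark uses a multiplier of 13, per the file headers. The authors also deposited a value table, read here as natural log from its slope against the scanner signal and used as an alternative after conversion to log2. The submitters' processing notes name limma.

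Control spots and 11 outlier spots were left out, spots of a probe were averaged as log2, and the 75th percentile of each array, taken over 1914 probes marked on all 6 arrays, was subtracted. A site (contig, strand, start, end) was represented by its brightest probe of 10902. limma 3.58.1 (lmFit, eBayes; R 4.3.3) was fitted to all 6 arrays over the 1349 sites detected on both arrays of at least 1 gate, and p-values were adjusted by Benjamini-Hochberg per contrast, with calls at an adjusted p under 0.05. The number of arrays limits the precision. With 2 arrays against 2, an exact two-sided permutation test cannot go below p = 0.333, so none was run for single sites. The fit was tested on simulated data with 200 changed of 1349 sites: for X2 against X1, 13.4%, 80.6% and 93.9% of changes of 1, 2 and 3 on the log2 scale were recovered. For Xins against X2 the shares were 13.4%, 77.6% and 98.5%. The simulated arrays had independent normal noise around 1 mean per site. They had no detection limit and no link between same-numbered arrays, so these shares need not hold for sites that are dim in X1.

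The sites, the tests and the rule for named sites were chosen with earlier results of these data known. Named are the 4 sites with the largest bound of Xins over X1, the 4 on both X2 arrays with the largest bound of X2 over X1, the 4 on no X2 array with the largest bound of Xins over X2, the 3 on 1 X2 array with the largest bound of Xins over X1, and the sites nearest the edges of the rule. Of these, 1 is not reported here. Other sites are named as chosen after their values were seen. The list of cell type markers was not run, since the tables give no gene names. Transcript model names are printed for at most 2 sites per contrast.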

Additional observations from a re-analysis of the deposited data

How the results depend on the processing

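Direction was kept at all 13 named sites under every alternative tried. Some values were no longer past the threshold, all of them at the 4 sites named for X2 over X1. Under normexp the log2 fold change shrank by over 1.5 times at all 13. It went from 7.88 to 2.63 at Contig2 (Xins over X1) and from 5.08 to 0.69 at Contig873 (Xins over X2). Both normexp values are below the log2 bounds of the main setting, 6.37 and 3.45, so the bounds hold for the main setting only. The class size stayed within 1.5 times of 92 with the weaker detection mark (116), the dimmest probe per site (90) and any probe (92). The same held, chosen after seeing the data, for any marked spot (100) and no marked spot in X1 (80). In that order, 50, 38, 44, 52 and 45 of these sites were on no X2 array, so that group was not the larger part in every setting. Leaving out 1 array gave 92 to 222 sites. Of these, 50 to 143 were on no X2 array, 24 to 48 on 1 and 27 to 87 on both; where an X2 array was left out, the remaining array decided both. The weaker mark put 35 sites on 1 X2 array. For Xins over X1, 79 of the sites were called, with 35 under normexp with quantile normalization and 24 when only sites detected on at least 4 arrays were tested, which left 25 of the 92 to test; leaving out 1 array gave 64 to 81. For X2 over X1, 16 were called, with 0 under normexp (6 at an unadjusted p under 0.05), 10 in the authors' table, 1 where dim probes were kept in the test (no filter) and 0 to 14 without 1 array (27 at an unadjusted p under 0.05 without X2 array 2). For Xins over X2, 54 were called, with 22 under normexp, 21 with no filter, 9 with at least 4 arrays and 35 to 57 without 1 array. Over all tested sites, 332 were called higher and 333 lower in Xins than in X1, with 375 and 182 in the authors' table and 171 and 83 with no filter. In X2 over X1 the calls were 63 and 21, with 28 and 27 under normexp, 74 and 40 when all probes set the percentile, 216 and 172 with the replicate block, 15 and 2 with no filter and 8 to 67 higher without 1 array. In Xins over X2 they were 192 and 155, with 208 and 52 in the authors' table, 300 and 421 with the replicate block, 60 and 2 with no filter and 114 to 191 higher without 1 array. The authors' table put the median log2 fold change of all tested sites at 0.33 for Xins over X1 and 0.06 for Xins over X2, against -0.17 and -0.27. Why calls were lost was not tested, except that fewer or more sites tested change the adjustment. Where an array was left out, the lone array of its gate was assumed to vary like the other gates.

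The labels number the arrays of each gate 1 and 2. The deviations of same-numbered arrays from their gate means correlated at 0.353 (Xins with X2), 0.419 (Xins with X1) and 0.573 (X2 with X1), and array 1 of every gate had the lower detection limit. No label says that a number marks a shared sort or day, and with 2 numbers the values cannot settle it, so the main counts are without a block. With the replicate number as a block, 84 sites were called for Xins over X1, 30 for X2 over X1 and 66 for Xins over X2. With the slide row as a block the counts were 75, 18 and 51. Both Xins arrays lay in slide row 2, while array 1 of X1 and of X2 lay in row 1 and array 2 in row 2. Gate and row are thus partly mixed, and within X1 and X2 row cannot be told apart from array number. Dim signal limits the rest: sites not well above background in X1 have only bounds.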

Other observations

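Some probes outside the class bear on single members. The probe of Contig849 (plus strand, 108317 to 108318), on no X2 array, has the same sequence as that of Contig1999 (plus strand, 48036 to 48037), which was not detected in Xins. The probe at Contig849 gave -5.98 and -4.91 on the Xins arrays and the one at Contig1999 -8.35 and -7.13, so the 2 copies of 1 sequence did not agree on the mark. The Xins signal of Contig849 was at least 1.35-fold higher than X1, close to the edge of the rule.

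Contig14929 (plus strand, 13640 to 13736), on no X2 array, shares the stem of its transcript model name with a site on Contig6828 (minus strand, 2795 to 2864) that was detected on all 6 arrays. The Contig6828 site had 3.01 and 3.75 on the Xins arrays, -3.57 and -2.95 on the X2 arrays and -2.98 and -3.86 on the X1 arrays. It too was far higher in Xins, while X2 and X1 overlapped.

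Of the 3 sites detected on X2 array 2 alone, Contig214 (plus strand, 177632 to 177641) had -8.42 and -4.37 on the X2 arrays and -8.60 and -5.27 on the X1 arrays, so that array 2 was the higher array in both gates. Contig3353 (minus strand, 37362 to 37446) had -6.62 and -5.40 on the X2 arrays and -8.74 and -5.44 on the X1 arrays. Contig3838 (minus strand, 21265 to 21271) had -7.54 and -5.50 on the X2 arrays and -8.68 and -7.56 on the X1 arrays.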
